A study of Tachycineta bicolor with 12 samples.

Results

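Brain and pectoral muscle are the pair of electrically excitable tissues in a transcriptome survey of the tree swallow (Tachycineta bicolor), and this comparison sets the 4 libraries of those tissues, 2 for brain and 2 for muscle, against each other out of 12 in the whole series. Members are the protein names of the deposited count table with the rows of the mitochondrial genome dropped, 12924 names in all. Within them are the members of 68 listed families of channels and pumps, calcium handling, cytoskeleton and energy metabolism. Most families are sets of paralogs, and some join different proteins of a complex or pathway. Each tissue was 1 pool of RNA from 2 wild adult females, 1 collected during territory establishment and 1 during incubation, and both tissues came from the same birds without any treatment. Each pool was sequenced once on a NextSeq and once on a MiSeq, so the spread between the libraries of a tissue is technical, no biological replicate exists, and no test between the tissues was run. Differences in bulk tissue may come from the number of cells of a type or from RNA per cell, and these cannot be told apart.

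Neurons and skeletal muscle fibres both fire action potentials and turn a change of membrane voltage into a rise of intracellular calcium, but vertebrates use different members of the same gene families for it. In skeletal muscle fibres of mammals the L-type calcium channel CACNA1S senses voltage and opens the ryanodine receptor RYR1 of the sarcoplasmic reticulum, whereas at synapses calcium entering through N-, P/Q- and R-type channels releases transmitter. The contractile apparatus of muscle and the axonal and dendritic skeleton of neurons are likewise built from separate actins, actin-binding proteins and intermediate filaments. Both tissues have a high demand for ATP, met in flight muscle of birds by mitochondria that burn fat and carbohydrate, and in brain mainly by glucose.

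After the mitochondrial rows were dropped, the brain libraries held 16396654.5 (NextSeq) and 896888.5 (MiSeq) counts and the muscle libraries 16535068.5 (NextSeq) and 874098 (MiSeq) counts. A level is given in counts per 1000000 of these totals (CPM), which is not scaled by gene length, so that levels of different genes are not compared, only the levels of 1 gene between tissues. Where values of both libraries of a tissue are given, NextSeq comes before MiSeq. The log2 ratio of a gene is that of brain over muscle from the summed counts of both platforms, with 1 CPM added to each, and a gene is called at least 4-fold higher where this ratio is 2 or more (brain) or -2 or less (muscle). Markers checked the labels. Those of neurons, 8 matched of 9, summed to 6737 and 7581 CPM in brain and to 29.2 and 26.9 CPM in muscle, and those of muscle fibres, 6 of 8, to 31.1 and 32.9 CPM in brain and to 76564 and 78357 CPM in muscle.

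Brain expressed a wider range of genes, and the counts of muscle were concentrated in fewer. At least 1 CPM was reached by 2579 names in brain alone, 222 in muscle alone and 9052 in both. Of 11853 names with at least 1 CPM in either tissue, 4031 (34.0%) were at least 4-fold higher in brain and 694 (5.86%) at least 4-fold higher in muscle. The 50 most abundant names held 11.2% of the counts in brain and 37.4% in muscle, and the median log2 ratio over all names was 1.28. A member with equal CPM in both tissues thus lay 1.28 below the median name, and directions below refer to CPM unless they are said to be relative to this median. The split depended on the scaling, since TMM factors gave 2430 names higher in brain and 1569 higher in muscle, centring on the median 2066 and 1739, and totals with the mitochondrial rows 6121 and 330. Among the names called, 3665 of 4031 and 601 of 694 were called on each platform alone.

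**Figure D1:**
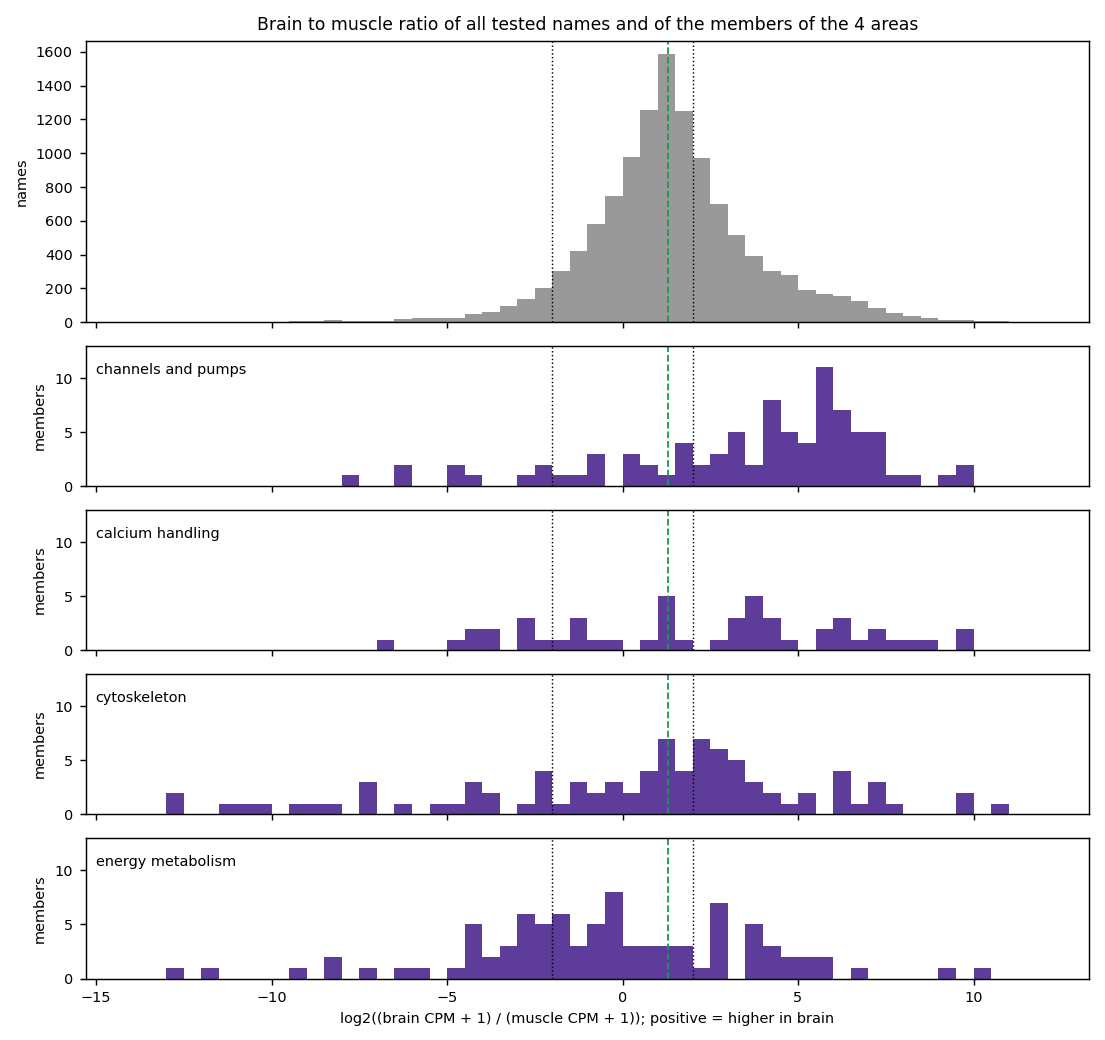
Number of names (upper panel) and of family members in 4 areas (lower panels) by log2((brain CPM + 1)/(muscle CPM + 1)) in bins of 0.5, with dotted lines at 4-fold and a dashed line at the median of all names, 1.28. Channels and pumps lie mostly to the right, with a median of 4.47, while energy metabolism is spread around a median of -0.49 and reaches to the left of -12.

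Of 390 listed family members 316 were matched to a protein name and 312 reached 1 CPM. Of these 312, 151 (48.4%) were at least 4-fold higher in brain and 73 (23.4%) at least 4-fold higher in muscle, against the 34.0% and 5.86% of all names. Channels and pumps were the most one-sided area, with 62 of 86 members higher in brain and 9 higher in muscle (median log2 ratio 4.47). Calcium handling had 26 of 49 higher in brain and 10 in muscle (median 3.09), the cytoskeleton 38 of 88 and 24 (median 1.42), and energy metabolism 25 of 89 and 30 (median -0.49). The members were chosen as genes known from these tissues, so that a share above that of all names follows in part from the choice.

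In many families the members divided between the tissues. A family here is a listed group, and some groups join different proteins of a complex or pathway, such as the dystrophin complex and the glycogen enzymes. Opposed members of such a group need not be paralogs. Of 65 families with at least 2 tested members, 31 held 1 member at least 4-fold higher in brain and another at least 4-fold higher in muscle. This was so in 7 of 11 families of channels and pumps, 2 of 14 of calcium handling, 8 of 15 of the cytoskeleton and 14 of 25 of energy metabolism. With ratios centred on their median the number was also 31, of which 27 were the same families. With the mitochondrial rows kept it was 30, of which 25 were the same. Among members listed for brain, neurons and glia alike, from textbooks that draw mostly on mammals, 96 of 109 were at least 4-fold higher in brain and only LDHB was at least 4-fold higher in muscle. Among those listed as muscle members, 49 of 68 were at least 4-fold higher in muscle and 4 (ATP2B4, CACNB1, SLC16A3 and SLC8A3) at least 4-fold higher in brain. PHKA2, one of the 96, was put on the brain list by choice here and not from a textbook. The lists were drawn up with earlier results of these data known, so these counts cannot test the textbook sides.

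**Figure D2:**
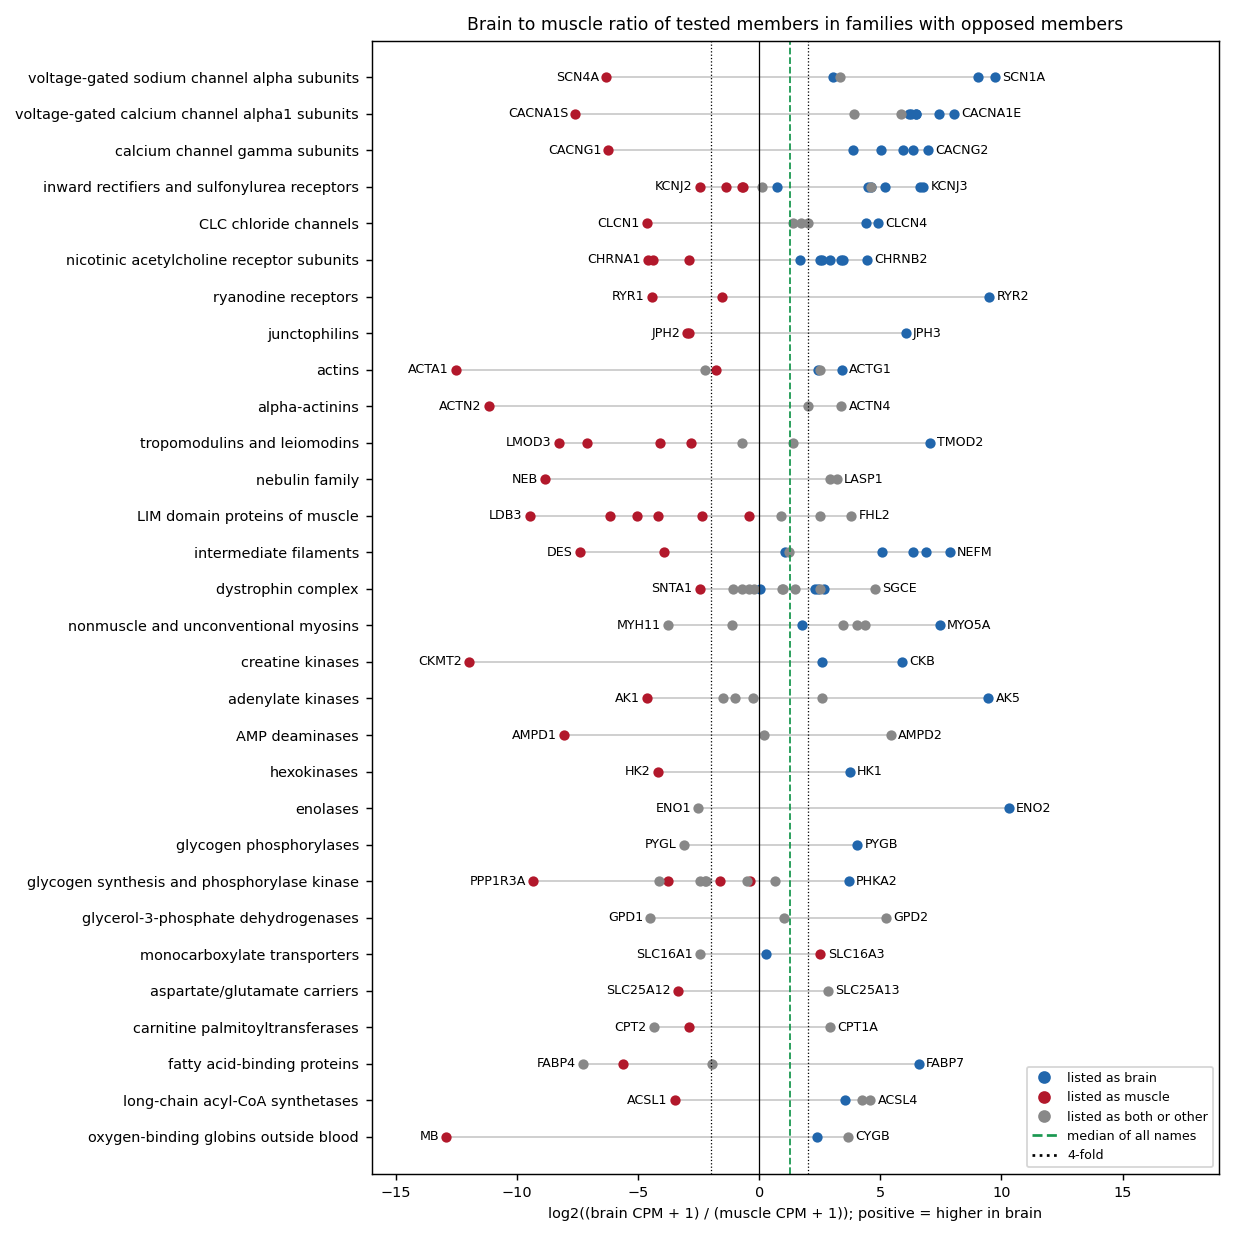
Each row is 1 of 30 of the 31 families with opposed members. Each point is a tested member at its log2((brain CPM + 1)/(muscle CPM + 1)), coloured by the tissue it is listed for, mostly from textbooks. The outermost members shown are named, from globins (CYGB 3.66, MB -12.92) to sodium channels (SCN1A 9.72, SCN4A -6.31), and blue points lie to the right of red ones in every row that holds both colours except the monocarboxylate transporters.

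The voltage-gated sodium channels, which carry the upstroke of the action potential, split cleanly. SCN1A had 1156 and 1132 CPM in brain against 0.393 and 0 CPM in muscle (log2 ratio 9.72). Its CPM was 3093 times as high in brain, with an exact (Clopper-Pearson) 95% interval of 1539 to 9130.3, which, as all intervals here, covers counting error only. SCN2A, of axons, had 1235 and 1069 CPM in brain and 1.18 and 4.58 CPM in muscle (9.03). SCN4A, the sodium channel of skeletal muscle fibres, had 0.549 and 0.557 CPM in brain against 123 and 101 CPM in muscle (-6.31). Both libraries of the higher tissue exceeded both of the lower one for each of the 3 genes. SCN8A, the channel of nodes of Ranvier, was shared to a larger degree, with 669 and 636 CPM in brain and 80.7 and 77.2 CPM in muscle (3.04, or 1.75 relative to the median). The accessory beta subunits had no muscle-sided member: SCN3B had 58.5 and 68.6 CPM in brain against 0.0907 and 0 CPM in muscle (5.79).

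Among the pore-forming subunits of voltage-gated calcium channels, 8 of 9 were at least 4-fold higher in brain and the muscle voltage sensor stood alone on the other side. CACNA1E, the R-type channel, had 296 and 268 CPM in brain and 0.121 and 0 CPM in muscle (8.05). CACNA1B, the N-type channel of nerve terminals, had 192 and 250.3 CPM in brain against 0.151 and 0 CPM in muscle (7.42). CACNA1S had 5.28 and 11.7 CPM in brain and 1279.7 and 1062 CPM in muscle (-7.59). The accessory subunits did not all follow the pore. The gamma subunits did, since CACNG2 (stargazin, which in mammals moves AMPA receptors to synapses) had 124 and 158 CPM in brain against no count in muscle (6.98, at least 728-fold higher in brain taking 3 counts as the limit of 0). CACNG1, the gamma subunit of the muscle channel, had 0.061 and 0 CPM in brain and 78.0 and 78.4 CPM in muscle (-6.22). All 4 beta subunits were higher in brain, including CACNB1, which is the partner of CACNA1S in mammalian muscle, with 25.9 and 21.7 CPM in brain against 4.20 and 6.29 CPM in muscle (2.33). Its call was lost on the MiSeq alone (1.64) and relative to the median (1.05). The alpha2delta subunit CACNA2D1 of muscle and heart was nearly shared, with 226 and 219.6 CPM in brain and 136 and 118 CPM in muscle (0.74, or -0.55 relative to the median). Its paralog CACNA2D3 had 135 and 153 CPM in brain against 0 and 1.14 CPM in muscle (7.02).

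Voltage-gated potassium channels, which end the action potential and set firing patterns, were almost wholly on the brain side, with 19 of 21 tested members at least 4-fold higher there. KCNC2, of the Kv3 channels of fast-spiking neurons, had 192 and 179 CPM in brain and 0.0605 and 0 CPM in muscle (7.51). KCNQ3, a subunit of the neuronal M-current, had 162 and 152 CPM in brain against 0.0605 and 0 CPM in muscle (7.26). The single member higher in muscle by CPM was KCNQ5, another subunit of M-type channels, with 38.5 and 26.8 CPM in brain and 152 and 118 CPM in muscle (-1.96), just short of 4-fold but -3.24 relative to the median. Inward rectifiers, which hold the resting potential, were divided between the tissues. The G protein-gated KCNJ3 had 109 and 89.8 CPM in brain against no count in muscle (6.77, at least 629-fold higher in brain). The glial KCNJ10 had 107 and 63.6 CPM in brain and 0 and 1.14 CPM in muscle (6.64). KCNJ2, the classical inward rectifier of muscle, had 2.96 and 6.13 CPM in brain against 22 and 9.72 CPM in muscle (-2.44), a CPM 6.83 times as high in muscle (exact 95% interval 5.13 to 9.28). KCNJ4, its relative in the Kir2 subfamily, had 28.5 and 32.3 CPM in brain and 0.212 and 0 CPM in muscle (4.63) and so lay on the other side. On the MiSeq alone the ratio of KCNJ2 was -0.59, which ended the call. The ATP-sensitive channel of muscle was less one-sided still: its pore KCNJ11 had 15.9 and 13.4 CPM in brain against 26.4 and 26.9 CPM in muscle (-0.70). Its regulatory subunit ABCC9 had 38.3 and 24.5 CPM in brain and 99.8 and 80.7 CPM in muscle (-1.37). ABCC8, the other sulfonylurea receptor, was at 0.74, which lies -0.54 from the median.

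CLC chloride channels and transporters showed the same arrangement with a single muscle member. CLCN1, which carries the resting chloride conductance of muscle fibres, had 2.38 and 3.90 CPM in brain against 84.4 and 86.4 CPM in muscle (-4.63). CLCN4, an endosomal exchanger, had 277 and 282 CPM in brain and 8.04 and 12 CPM in muscle (4.91). Of the other endolysosomal members, CLCN3 was at the threshold (2.00, or 0.72 relative to the median) with 529 and 487 CPM in brain against 131 and 127 CPM in muscle, a call that ended on the MiSeq alone (1.93). CLCN5 (1.73) and CLCN7 (1.38) were under it. Nicotinic acetylcholine receptors, which serve the neuromuscular junction in muscle and ganglia and synapses in the nervous system, divided by subunit. CHRNB2, the main partner of neuronal alpha subunits, had 43.2 and 31.8 CPM in brain and 1.06 and 0 CPM in muscle (4.44), or 42.4 times as high in brain (exact 95% interval 25.9 to 69.9). CHRNA1, of the muscle receptor, had 0.152 and 0 CPM in brain against 26.2 and 31.5 CPM in muscle (-4.58). CHRND, of the same receptor, had 0.061 and 0 CPM in brain and 21.3 and 16.0 CPM in muscle (-4.38). CHRNG, the gamma subunit that in mammals belongs to the fetal and denervated receptor, was also on the muscle side. It had 1.4 and 2.23 CPM in brain against 16.9 and 21.2 CPM in muscle (-2.89). With a pseudocount of 5 CPM the ratio of CHRNG was -1.78, which ended the call. In all, 6 of 7 tested neuronal subunits were at least 4-fold higher in brain, against 34.0% of all names. Of the muscle subunits 3 of 3 tested were at least 4-fold higher in muscle, against 5.86% of all names. With a pseudocount of 5 CPM the brain calls of CHRNA3 (1.68), CHRNA4 (1.89), CHRNA7 (0.96) and CHRNB4 (1.21) ended. Relative to the median, CHRNA4 (1.30), CHRNA7 (1.23) and CHRNB4 (1.64) were under the threshold.

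**Figure D3:**
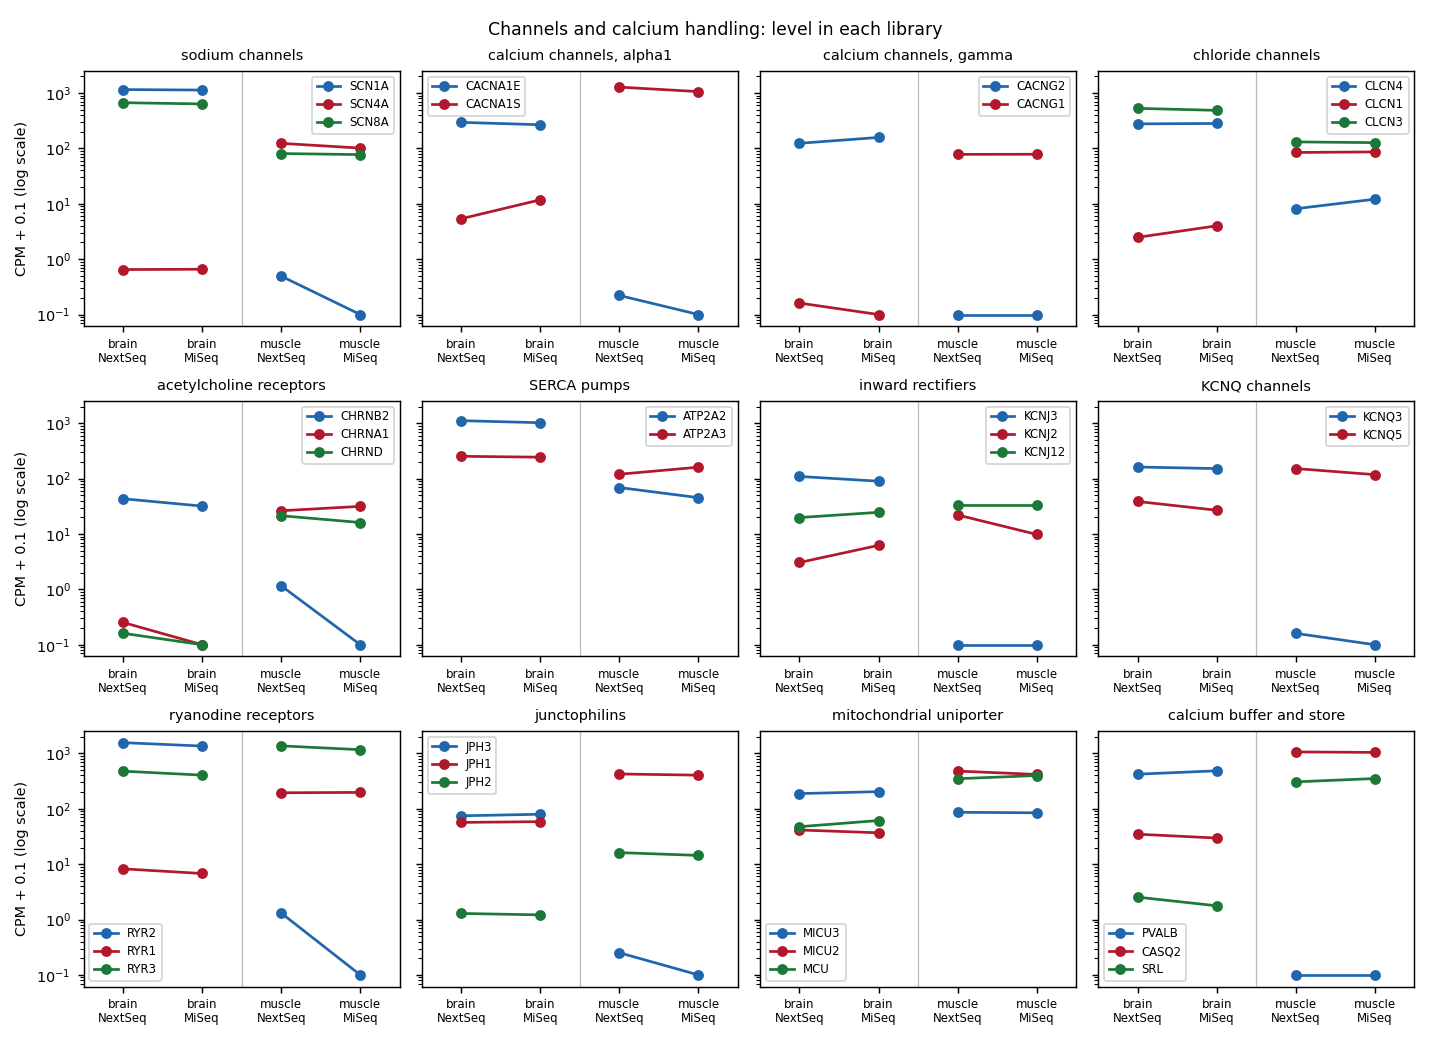
Level of selected members in each of the 4 libraries, as CPM plus 0.1 on a log axis, with lines joining the 2 platforms of 1 tissue. In most panels one member is lower and another higher in muscle than in brain, for example RYR2 at 1567 CPM in the brain NextSeq library against 1.21 CPM in that of muscle, and RYR1 at 8.14 CPM in brain against 195 CPM in muscle, while KCNJ12 and MICU3 differ less.

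Ryanodine receptors, the release channels of the calcium store, had 1 member for each tissue and 1 for both. RYR2 had 1567 and 1360.3 CPM in brain and 1.21 and 0 CPM in muscle (9.5). RYR1 had 8.14 and 6.69 CPM in brain against 195 and 198 CPM in muscle (-4.43), a CPM 24.2 times as high in muscle (exact 95% interval 20.3 to 28.7). RYR3, which birds and other non-mammalian vertebrates carry beside RYR1 in skeletal muscle, had 479 and 406 CPM in brain and 1372 and 1169 CPM in muscle (-1.52, or -2.80 relative to the median). RYR3 was thus abundant in both tissues and higher in both muscle libraries than in both brain libraries. The inositol trisphosphate receptors, the other kind of release channel, were all higher in brain by CPM. ITPR1, of Purkinje cells, had 736 and 665 CPM in brain against 49.9 and 41.2 CPM in muscle (3.86). ITPR3 had 71.0 and 68.0 CPM in brain and 17.8 and 14.9 CPM in muscle (1.95).

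Proteins of the junction between surface membrane and calcium store followed the tissue. JPH3, a neuronal junctophilin, had 74.7 and 79.7 CPM in brain against 0.151 and 0 CPM in muscle (6.05). JPH1 of skeletal muscle had 56.7 and 58.5 CPM in brain and 426 and 406 CPM in muscle (-2.88). JPH2, the form of heart in mammals, had 1.19 and 1.11 CPM in brain against 16.1 and 14.3 CPM in muscle (-2.96, with 13.5 times the CPM in muscle and an exact 95% interval of 8.77 to 23.0). With the mitochondrial rows kept, both muscle calls ended (JPH1 at -1.77 and JPH2 at -1.88), and so did that of JPH2 with a pseudocount of 5 CPM (-1.76). Calsequestrin-2, the calcium store protein typical of heart and slow fibres in mammals, had 34.7 and 29.5 CPM in brain and 1065 and 1045 CPM in muscle (-4.91). Sarcalumenin (SRL), a calcium-binding protein of the sarcoplasmic reticulum, had 2.44 and 1.67 CPM in brain against 307 and 352 CPM in muscle (-6.51). Calreticulin (CALR), the calcium store protein of the general endoplasmic reticulum, had 244 and 371 CPM in brain and 101 and 134 CPM in muscle, a ratio at the median of all names (1.28).

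The pumps and exchangers that remove calcium were higher in brain, with no tested member at least 4-fold higher in muscle. The SERCA pump ATP2A2 had 1114 and 1021 CPM in brain against 68.9 and 45.2 CPM in muscle (4.01). ATP2A3 had 253 and 244 CPM in brain and 119.9 and 161 CPM in muscle (1.04, -0.24 relative to the median). The fast-fibre pump ATP2A1 was not matched to a name and is not analysed here. The small proteins that restrain SERCA pumps were on the muscle side. Phospholamban (PLN) had 0.0305 and 0 CPM in brain against 12.7 and 13.7 CPM in muscle (-3.74). With a pseudocount of 5 CPM the ratio of PLN was -1.82, which ended the call. Sarcolipin (SLN) had no count in brain and 10.6 and 109 CPM in muscle (-4.05, at least 89.7-fold higher in muscle), and the platforms gave -3.54 and -6.78. Its level in muscle thus differed between the NextSeq and the MiSeq library. The paper reports a shorter fragmentation for larger fragments, and whether platform or library preparation made this difference was not tested. Among the plasma membrane pumps, ATP2B2, of cerebellum and hair cells in mammals, had 541 and 494 CPM in brain against 3.11 and 2.86 CPM in muscle (7.04). ATP2B1 had 1409.7 and 1245 CPM in brain and 116 and 72.6 CPM in muscle (3.61). Of the genes listed for muscle, ATP2B4 was likewise higher in brain, with 365 and 375 CPM in brain against 21.6 and 17.2 CPM in muscle (4.03). So was the exchanger SLC8A3, with 93.3 and 89.8 CPM in brain and 4.11 and 0 CPM in muscle (4.26).

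Calcium buffers and neuronal calcium sensors were at least 4-fold higher in brain for all 7 tested genes. Parvalbumin (PVALB), which marks fast-spiking interneurons and in mammals also buffers calcium in fast muscle fibres, had 422 and 486 CPM in brain against no count in muscle, at least 2470.1-fold higher in brain. Calretinin (CALB2) had 214 and 221 CPM in brain and 0.0605 and 0 CPM in muscle (7.67). Calbindin (CALB1) had 157 and 215 CPM in brain against 0.0605 and 0 CPM in muscle (7.25). Visinin-like protein 1 (VSNL1), a neuronal calcium sensor, had 1232 and 1239 CPM in brain and 0.212 and 0.572 CPM in muscle (9.97). All 3 buffers were at or near 0 in both muscle libraries. Of the calcium-dependent enzymes, the neuronal CaM kinase II genes CAMK2B (8.19) and CAMK2A (6.21) were far higher in brain, with 752 and 755 CPM in brain against 1.60 and 1.14 CPM in muscle for CAMK2B. CAMK2D and CAMK2G, the isoforms found in many tissues, had ratios of 0.87 and 1.01 and lay -0.41 and -0.27 from the median. Of the catalytic subunits of calcineurin, PPP3CA had 912 and 965 CPM in brain and 16.6 and 21.7 CPM in muscle (5.68). PPP3CC had 21.7 and 23.4 CPM in brain against 38.6 and 39.5 CPM in muscle (-0.79).

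The mitochondrial calcium uniporter complex, through which mitochondria take up calcium, had 3 of 7 tested members at least 4-fold higher in muscle. None was at least 4-fold higher in brain, but with the mitochondrial rows kept the complex held members at least 4-fold higher in each tissue. MICU2, a gatekeeper of the pore, had 41.3 and 36.8 CPM in brain and 480.3 and 418 CPM in muscle (-3.51). The pore MCU had 47.5 and 61.3 CPM in brain against 349.6 and 399 CPM in muscle (-2.84, or -1.73 on totals with the mitochondrial rows, which ended the call). MICU3, a paralog of this gatekeeper enriched in brain of mammals, had the highest ratio, with 188 and 204 CPM in brain and 86.5 and 84.7 CPM in muscle (1.12, or -0.16 relative to the median). Of store-operated entry, the channel ORAI2 had 28.1 and 28.4 CPM in brain against 1.12 and 1.14 CPM in muscle (3.78). Its paralog ORAI1 had 7.11 and 6.69 CPM in brain and 15.8 and 16.0 CPM in muscle (-1.06). With TMM factors or ratios centred on their median, store-operated entry held members at least 4-fold higher in each tissue.

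The actins and the proteins that anchor them held some of the widest ratios of the cytoskeleton. ACTA1, the sarcomeric actin of skeletal muscle, had 3.99 and 3.90 CPM in brain against 29171 and 25690.5 CPM in muscle (-12.50). Cytoplasmic ACTG1 had 381 and 248 CPM in brain and 34.9 and 22.9 CPM in muscle (3.41). Cytoplasmic ACTB had 924 and 827 CPM in brain against 171 and 169.9 CPM in muscle (2.42, or 1.14 relative to the median). Both libraries of muscle were below both of brain for the cytoplasmic pair. Actins are nearly identical in sequence, so the small values of other sarcomeric actins, such as ACTC1 with 3.02 and 5.57 CPM in brain and 13.5 and 12.6 CPM in muscle, may hold reads of ACTA1, which was not tested. ACTN2, the alpha-actinin of the Z-disc, had 1.52 and 2.23 CPM in brain against 5886 and 5276 CPM in muscle (-11.16). ACTN4, a nonmuscle alpha-actinin, had 157 and 113 CPM in brain and 14.0 and 9.15 CPM in muscle (3.39). NEB, the giant ruler of the thin filament, had 11.6 and 12.8 CPM in brain against 5769 and 5505 CPM in muscle (-8.83). Its small relative LASP1 had 46.3 and 44.6 CPM in brain and 3.45 and 17.7 CPM in muscle (3.19, with 1.28 on the MiSeq alone and 1.91 relative to the median).

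Capping proteins of actin filaments and the LIM domain proteins repeated the division. TMOD2, the neuronal tropomodulin, had 256 and 239 CPM in brain against 0.907 and 1.14 CPM in muscle (7.06). LMOD3, a nucleator of thin filaments, had 0.549 and 0 CPM in brain and 466 and 497 CPM in muscle (-8.27). TMOD1, the capping protein of striated muscle, had 2.71 and 1.11 CPM in brain against 493 and 539.99 CPM in muscle (-7.10). LDB3, a Z-disc protein, had 4.27 and 4.46 CPM in brain and 3698 and 4413 CPM in muscle (-9.47). FHL2, a LIM-only protein known from heart, had 16.6 and 16.7 CPM in brain against 0.272 and 0 CPM in muscle (3.81). In these families 4 of 7 tropomodulins and leiomodins and 5 of 9 LIM domain proteins were at least 4-fold higher in muscle, and 1 and 2 at least 4-fold higher in brain. Tropomyosins had no brain-sided member past 4-fold: TPM1 had 116 and 226 CPM in brain and 21533 and 19750.1 CPM in muscle (-7.45). TPM4 had 20.3 and 16.2 CPM in brain against 6.80 and 6.86 CPM in muscle (1.43).

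All 4 tested troponins, the calcium switch of the thin filament, were at least 4-fold higher in muscle. TNNT3, the fast troponin T, had 4.82 and 6.69 CPM in brain and 41136 and 40931 CPM in muscle (-12.76). TNNI2, fast troponin I, had 3.08 and 3.34 CPM in brain against 5973 and 6693 CPM in muscle (-10.52). TNNC1, slow and cardiac troponin C, had 6.5 and 7.80 CPM in brain and 8117 and 8787 CPM in muscle (-10.07). TNNC2, fast troponin C, stood apart with 321 and 283 CPM in brain against 8597 and 9959.98 CPM in muscle (-4.76), and its level in brain came from particular segments, described with the other names of several segments.

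Intermediate filaments, the rope-like skeleton, were divided between neurons, glia and muscle. NEFM, a neurofilament subunit of axons, had 252 and 271 CPM in brain and 0.0907 and 0 CPM in muscle (7.87). NEFL, another, had 246 and 253 CPM in brain against 1.09 and 1.14 CPM in muscle (6.89). Astrocytic GFAP had 33.1 and 26.8 CPM in brain and no count in muscle (5.08, at least 190.1-fold higher in brain). Desmin (DES), which ties myofibrils together, had 2.90 and 4.46 CPM in brain against 683 and 523 CPM in muscle (-7.41). Its partner synemin (SYNM) had 67.1 and 59.7 CPM in brain and 1022 and 919 CPM in muscle (-3.91). Vimentin, of mesenchymal and glial cells, was close to the median of all names, with 152 and 135 CPM in brain against 62.8 and 68.6 CPM in muscle (1.25). Microtubule-associated proteins were all at least 4-fold higher in brain. Dendritic MAP2 had 2589 and 2359 CPM in brain and 0.544 and 0 CPM in muscle (10.73). The ubiquitous MAP4 had 61.0 and 84.2 CPM in brain against 13.6 and 11.4 CPM in muscle (2.12, or 0.84 relative to the median). The dynamins, which pinch off vesicles, were also one-sided. DNM1 of synaptic vesicle recycling had 1005 and 940.5 CPM in brain and 10.3 and 7.44 CPM in muscle (6.49). The ubiquitous DNM2 had 131 and 357 CPM in brain against 21.6 and 11.4 CPM in muscle (2.71, or 1.43 relative to the median).

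In the membrane skeleton, 3 of 5 tested spectrins and 2 of 3 ankyrins were at least 4-fold higher in brain, against 34.0% of all names. Spectrins and ankyrins had no member higher in muscle. The spectrin SPTAN1 had 2016 and 1795 CPM in brain and 127 and 109 CPM in muscle (3.98). The ankyrin ANK2 had 811 and 846 CPM in brain against 23.0 and 36.6 CPM in muscle (5.04). ANK1, an ankyrin of muscle and red cells, had 463 and 487 CPM in brain and 219 and 268 CPM in muscle (1.07, or -0.21 relative to the median). Of 15 tested members of the dystrophin complex, which links the cytoskeleton to the matrix, 8 were under 4-fold either way. Among all names this was so for 7128 of 11853. Dystrophin itself (DMD) had 303 and 309.96 CPM in brain against 498 and 436 CPM in muscle (-0.71). Alpha-dystrobrevin (DTNA) had 170.5 and 189 CPM in brain and 167 and 185 CPM in muscle (0.03). SGCE, the sarcoglycan found in brain, had 159 and 143 CPM in brain against 4.87 and 3.43 CPM in muscle (4.78). Of the motor proteins, MYO5A, which carries organelles into dendrites, had 1023 and 887 CPM in brain and 4.75 and 5.72 CPM in muscle (7.45). Smooth muscle MYH11 had 9.0 and 11.7 CPM in brain against 65.9 and 1487 CPM in muscle (-3.77), with platform ratios of -2.74 and -6.87. Nonmuscle MYH9 had 179 and 161 CPM in brain and 331 and 1491 CPM in muscle, with platform ratios of -0.88 and -3.20. In both genes the MiSeq library of muscle was far above the NextSeq library. They are relatives of the skeletal myosin heavy chains, and how reads were divided among them was not tested.

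**Figure D4:**
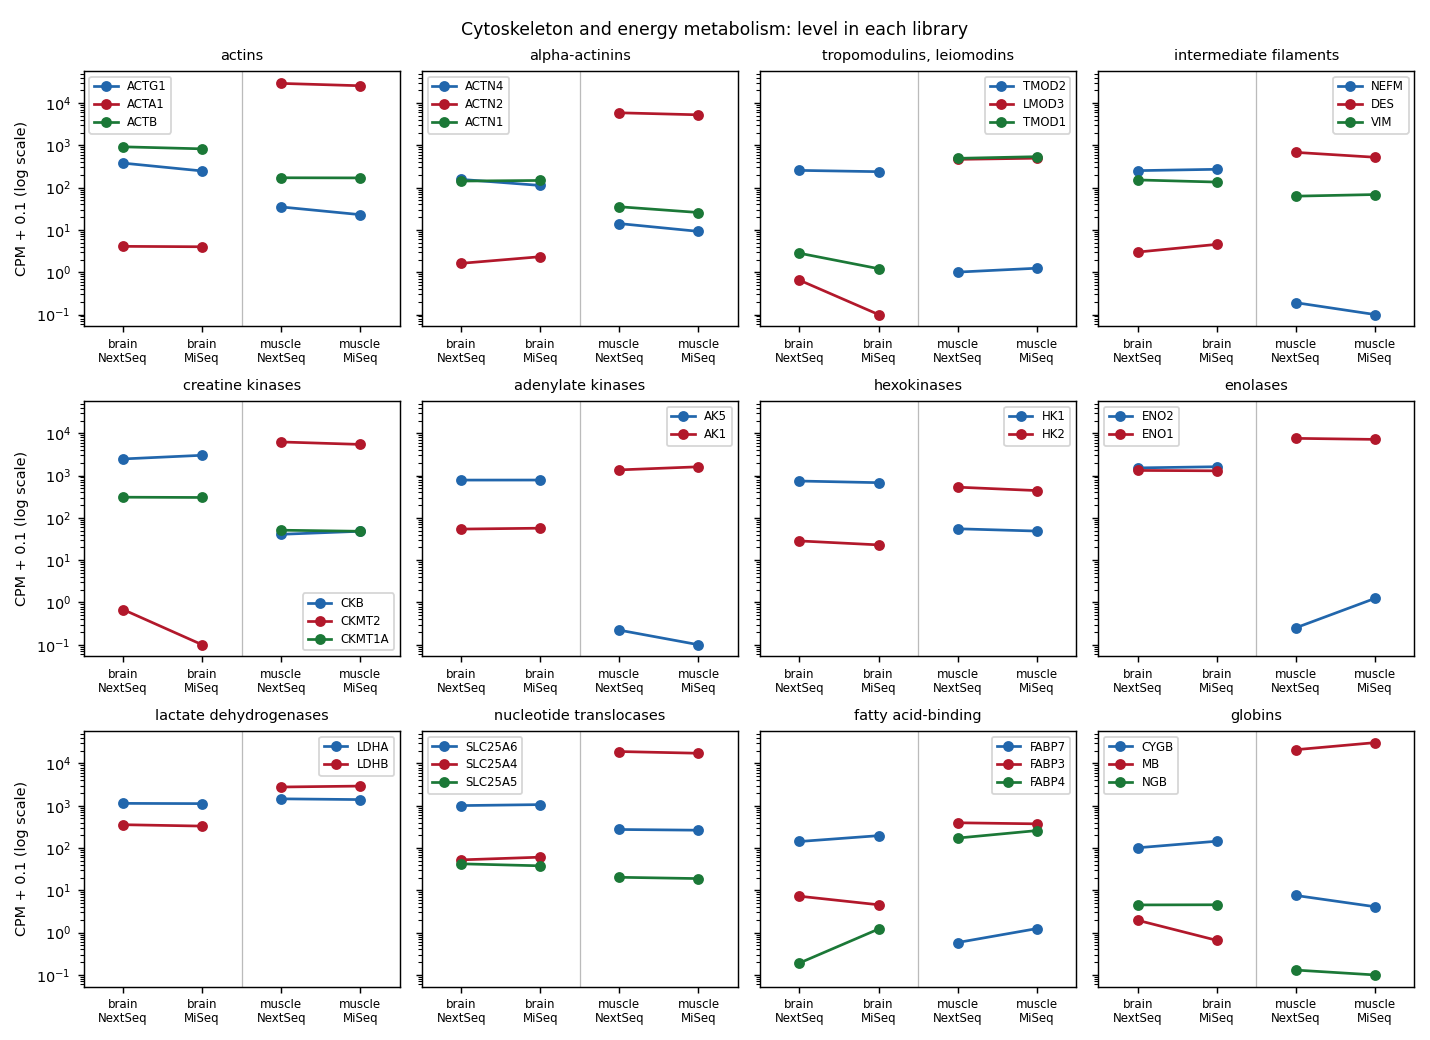
Level of selected cytoskeletal and metabolic members in each library, as CPM plus 0.1 on a log axis, with lines joining the 2 platforms of 1 tissue. ACTA1 reaches 29171 CPM in the muscle NextSeq library and 3.99 CPM in that of brain, whereas both lactate dehydrogenases are present in both tissues.

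Enzymes that shuttle high-energy phosphate divided sharply. CKB, the cytosolic brain creatine kinase, had 2472 and 3016 CPM in brain against 40.7 and 48.0 CPM in muscle (5.89). CKMT1A, the mitochondrial form of brain, had 308 and 303 CPM in brain and 51.0 and 48.0 CPM in muscle (2.57, or 1.29 relative to the median). CKMT2, the mitochondrial form of striated muscle, had 0.579 and 0 CPM in brain against 6232 and 5452 CPM in muscle (-11.96). The cytosolic muscle form CKM was not matched and is not analysed here. Adenylate kinases regenerate ATP from ADP. AK5 had 782 and 784 CPM in brain and 0.121 and 0 CPM in muscle (9.46). AK1 had 54.2 and 56.9 CPM in brain against 1362 and 1611 CPM in muscle (-4.64). AMP deaminases, which drain AMP, were divided in the same way. AMPD2 had 101 and 83.1 CPM in brain and 1.39 and 0.572 CPM in muscle (5.42). AMPD1 had 0.122 and 0 CPM in brain against 299 and 285 CPM in muscle (-8.07). CKMT2 and AMPD1 were under 1 CPM in both brain libraries and AK5 under 1 CPM in both muscle libraries, while AMPD3 was shared (0.18).

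In glycolysis, paralogs of a single step went opposite ways at hexokinase and enolase. At the entry step, hexokinase HK1 had 743 and 679 CPM in brain and 55.1 and 48.6 CPM in muscle (3.73). Insulin-regulated HK2 had 28.4 and 22.9 CPM in brain against 532 and 442 CPM in muscle (-4.18). The enolases differed more. Neuronal ENO2 had 1517 and 1618 CPM in brain and 0.151 and 1.14 CPM in muscle (10.31). ENO1 had 1322 and 1295 CPM in brain against 7581 and 7163 CPM in muscle (-2.52, or -1.41 on totals with the mitochondrial rows, which ended the call). Both phosphofructokinases tested, which commit sugar to glycolysis, were higher in brain. PFKP had 618 and 576 CPM in brain and 10.1 and 9.72 CPM in muscle (5.80). PFKL had 228 and 181 CPM in brain against 8.41 and 6.86 CPM in muscle (4.60). Brain aldolase ALDOC had 2233 and 2077 CPM in brain and 140.04 and 141 CPM in muscle (3.98). The muscle forms PFKM, ALDOA, ENO3 and PGAM2 were not matched and are not analysed here, and whether their reads were counted at a paralog such as ENO1 was not tested. The steps with 1 main enzyme were higher in muscle by CPM in all 5 genes tested. The most one-sided, GAPDH, had 3329 and 3636 CPM in brain against 18029.95 and 16841 CPM in muscle (-2.43). The least, PKM, had 1465 and 1527 CPM in brain and 2138 and 1813 CPM in muscle (-0.53), a direction that turned to 0.58 on totals with the mitochondrial rows.

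Lactate handling did not follow the textbook lists. LDHA, listed for muscle, had 1139 and 1123 CPM in brain against 1458 and 1399.7 CPM in muscle (-0.35, or 0.76 on totals with the mitochondrial rows). LDHB, the heart-type subunit listed for brain, had 357 and 331 CPM in brain and 2776 and 2921 CPM in muscle (-2.97, or -1.86 on totals with the mitochondrial rows, which ended the call). Of the transporters that carry lactate across membranes, SLC16A3, the exporter of glycolytic fibres in mammals, had 78.4 and 83.1 CPM in brain against 12.9 and 10.9 CPM in muscle (2.53, or 1.25 relative to the median). SLC16A1, which serves uptake in oxidative fibres, had 47.6 and 48.5 CPM in brain and 262 and 227 CPM in muscle (-2.43, or -1.32 on those totals, under the threshold). Both SLC16A1 and LDHB were higher in both muscle libraries than in both brain libraries.

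Glycogen enzymes were mostly on the muscle side. Of the glycogen phosphorylases, PYGB, the brain form, had 549.9 and 559 CPM in brain against 32.8 and 26.3 CPM in muscle (4.04). PYGL, the liver form by name, had 45.5 and 36.2 CPM in brain and 403 and 279.7 CPM in muscle (-3.11). The muscle form PYGM was not matched and is not analysed here. PPP1R3A, which anchors protein phosphatase 1 to glycogen in striated muscle, had 0.061 and 1.11 CPM in brain against 720.5 and 638 CPM in muscle (-9.33). PHKG1, the catalytic subunit of phosphorylase kinase in muscle, had 42.3 and 34.0 CPM in brain and 583 and 464 CPM in muscle (-3.75). PHKA2, a regulatory subunit of this kinase, had 88.0 and 94.8 CPM in brain against 5.75 and 8.01 CPM in muscle (3.70). Its place on the brain list was a choice made here and not a textbook side. Of 11 tested genes of glycogen synthesis and phosphorylase kinase, 6 were at least 4-fold higher in muscle and 1 in brain. With the mitochondrial rows kept, the muscle calls of GBE1 (-1.35), PPP1R3B (-1.18) and PPP1R3D (-1.14) ended. Those of PPP1R3B (-1.38) and PPP1R3D (-1.99) also ended on the MiSeq alone. The redox shuttles, which move electrons of NADH into mitochondria, were split as well. Cytosolic GPD1 had 21.6 and 21.7 CPM in brain and 509.6 and 481 CPM in muscle (-4.50). Mitochondrial GPD2 had 115 and 109 CPM in brain against 1.97 and 4.58 CPM in muscle (5.23). GPD1 and GPD2 thus lay on opposite sides. The remaining tested member of this family, GPD1L, was under 4-fold (1.01). Its segments were unlike, with 170 CPM in brain and 3.65 CPM in muscle (5.20) for 1 and 57.1 CPM in brain and 109 CPM in muscle (-0.92) for another. The aspartate/glutamate carrier SLC25A12 had 249.9 and 224 CPM in brain and 2555 and 2107 CPM in muscle (-3.34). Its paralog SLC25A13 had 233 and 229 CPM in brain against 31.4 and 32.6 CPM in muscle (2.85, or 1.57 relative to the median).

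Of the adenine nucleotide translocases 1 of 3 tested members was at least 4-fold higher in muscle. This was so for 2 of 4 pyruvate dehydrogenase kinases and 2 of 2 cytochrome c oxidase subunits, against 5.86% of all names. None of these members was at least 4-fold higher in brain, against 34.0% of all names. On the MiSeq alone or with the mitochondrial rows kept, the translocases held members at least 4-fold higher in each tissue. SLC25A4, the adenine nucleotide translocase of muscle, had 52.5 and 60.8 CPM in brain and 19159 and 17443 CPM in muscle (-8.47). SLC25A6 had 1009.7 and 1065 CPM in brain against 275 and 264 CPM in muscle (1.88). PDK4, which spares glucose by shutting off pyruvate dehydrogenase, had 12.5 and 18.4 CPM in brain and 1227 and 1234 CPM in muscle (-6.48). PDK2 had 70.2 and 52.4 CPM in brain against 46.0 and 40.6 CPM in muscle (0.59). Of the nuclear-encoded subunits of cytochrome c oxidase, both tested genes were higher in muscle. COX7A2 had 47.2 and 60.8 CPM in brain and 957 and 1218 CPM in muscle (-4.31). COX4I1 had 266 and 219 CPM in brain against 1505 and 1314 CPM in muscle (-2.50). The mitochondrial genome itself, left out of all these values, supplied 12.2% and 11.3% of the counts in brain and 59.5% and 56.4% in muscle.

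Carriers and enzymes of fatty acids were split between the tissues. CPT2, which completes the import of fatty acids into mitochondria, had 55.7 and 53.5 CPM in brain and 1149.9 and 985 CPM in muscle (-4.34). The muscle form CPT1B had 2.77 and 2.23 CPM in brain against 27.7 and 16.0 CPM in muscle (-2.91). CPT1A, the liver form, had 165 and 158 CPM in brain and 20.6 and 25.7 CPM in muscle (2.92, or 1.64 relative to the median). Fatty acid-binding proteins followed the tissue. FABP7 of brain had 143 and 196 CPM in brain against 0.484 and 1.14 CPM in muscle (6.59). FABP3 of heart and muscle had 7.17 and 4.46 CPM in brain and 396 and 374 CPM in muscle (-5.62). FABP4, matched by a name ending in -like, had 0.0915 and 1.11 CPM in brain against 172 and 259 CPM in muscle (-7.28). It is a gene of adipocytes, and the 3 adipocyte markers, itself included, summed to 1.43 and 5.02 CPM in brain and to 204 and 288 CPM in muscle, whose part in the result was not tested. Acyl-CoA synthetases activate fatty acids. ACSL4 had 267 and 258 CPM in brain and 10.3 and 7.44 CPM in muscle (4.59). ACSL1 had 103 and 102 CPM in brain against 1167 and 1062 CPM in muscle (-3.49). Myoglobin (MB), the oxygen store of muscle, had 1.86 and 0.557 CPM in brain and 21169 and 31069 CPM in muscle (-12.92). Cytoglobin (CYGB) had 101 and 145 CPM in brain against 7.47 and 4.0 CPM in muscle (3.66).

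All 3 tested PGC-1 coactivators and estrogen-related receptors, which regulate mitochondrial genes, were under 4-fold. Among all names this was so for 7128 of 11853. PPARGC1A, a coactivator of mitochondrial genes, had 40.6 and 40.7 CPM in brain and 52.0 and 54.9 CPM in muscle (-0.35). ESRRG, its nuclear receptor partner, had 82.7 and 76.4 CPM in brain against 67.4 and 59.5 CPM in muscle (0.30). Of 7 AMP-activated protein kinase subunits 5 were under 4-fold and 2 at least 4-fold higher in muscle, against 7128 and 694 of 11853 names. The muscle subunit PRKAG3 was among the 2, with 0.061 and 0 CPM in brain and 12.5 and 6.86 CPM in muscle (-3.65). With a pseudocount of 5 CPM its ratio was -1.77, which ended the call. Of 6 glucose transporters 3 were at least 4-fold higher in brain, against 34.0% of all names. Neuronal SLC2A3 was among the 3, with 191 and 209.6 CPM in brain against 25.7 and 21.7 CPM in muscle (2.86, or 1.58 relative to the median). SLC2A12 was the only one of 6 higher in muscle by CPM, with 11.3 and 16.7 CPM in brain and 43.1 and 36.6 CPM in muscle (-1.80). With TMM factors or ratios centred on their median, the glucose transporters held members at least 4-fold higher in each tissue. Rescaling without the 50 most abundant names did the same.

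A protein name can stand for several segments of the assembly, and in a few names these went opposite ways. Of 783 names with 2 or more segments of at least 10 CPM in a tissue, 6 (0.766%) had 1 segment at least 4-fold higher in brain and another at least 4-fold higher in muscle, while 84 had segments whose log2 ratios differed by 2 or more. One of the 6 is PYGL, with a segment at 42.2 CPM in brain and 7.50 CPM in muscle (2.35) and another at 2.80 CPM in brain and 389 CPM in muscle (-6.68). The others are the triglyceride lipase PNPLA2, with segments at 34.1 CPM in brain and 6.46 CPM in muscle and at 42.6 CPM in brain and 483 CPM in muscle, the sulfotransferase CHST9, with segments at 32.1 CPM in brain and 0 CPM in muscle and at 1.01 CPM in brain and 51.1 CPM in muscle, SNED1, with segments at 122 CPM in brain and 5.66 CPM in muscle and at 0.0867 CPM in brain and 16.7 CPM in muscle, hemoglobin subunit alpha-D and 1 uncharacterized protein. Hemoglobin alpha-D, of red blood cells, had 5 such segments, with log2 ratios between -3.54 and 2.47. The summed level of the 3 matched red blood cell markers was 1098 and 1245 CPM in brain and 2824 and 3981 CPM in muscle. These markers were unlike: hemoglobin alpha-D had 369 CPM in brain and 2041 CPM in muscle, HBB 585 and 548 CPM, and CA2 151 and 293 CPM.

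Troponin C and aldolase C show, short of that rule, how a name can mix unlike segments, and were chosen after their values were seen. TNNC2 had 4 segments, of which the largest was at 0.867 CPM in brain and 7385 CPM in muscle (-11.95) and another at 0.202 CPM in brain and 1064 CPM in muscle (-9.79). The remaining segments were at 242 CPM in brain and 198 CPM in muscle (0.28) and at 76.3 CPM in brain and 18.8 CPM in muscle (1.97), and they supplied nearly all of the TNNC2 level in brain. ALDOC had a segment at 2179 CPM in brain and 2.30 CPM in muscle (9.37) and a second at 46.0 CPM in brain and 138 CPM in muscle (-1.56). Segments of 1 name may be parts of a gene, isoforms or gene copies, and which of these applies was not tested.

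**Figure D5:**
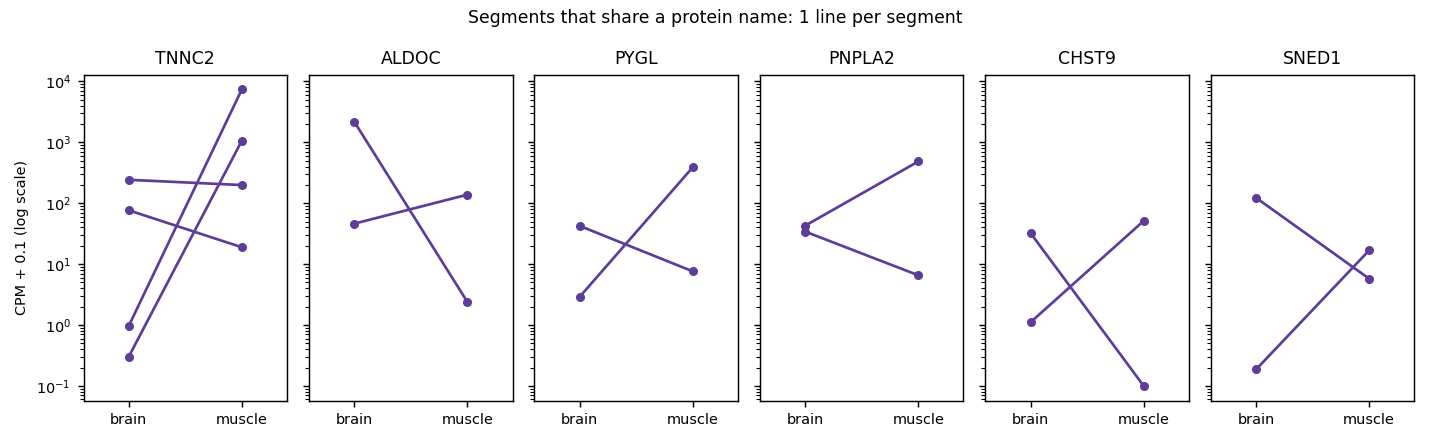
CPM plus 0.1 (log axis) in brain and in muscle of each segment with counts for 6 protein names, 1 line per segment, from the summed counts of both platforms. In TNNC2 a pair of segments climbs steeply towards muscle and another pair does not, and in PYGL, CHST9 and SNED1 the lines cross.

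Outside the families, of the 10 names with the largest ratio towards brain among those of at least 100 CPM, 5 belong to synapses and axonal transport: KIF1A, a kinesin of synaptic vesicle precursors, with 2092 and 1926 CPM in brain against 0.212 and 0 CPM in muscle, and SNAP25, SYT1, SLC17A6 and glutamate receptor 2, of transmitter release, vesicle filling and fast excitation. SNAP25 had 1388 and 2126 CPM in brain and 0 and 1.14 CPM in muscle, and glutamate receptor 2 had 1519 and 1463 CPM in brain against no count in muscle. The remaining names were angiotensinogen, with 1588 and 1816 CPM in brain and no count in muscle, reticulon-1, neuronal membrane glycoprotein M6-a, NDRG4 and the sodium-driven chloride bicarbonate exchanger. Of these 10 names, 5 had no count at all in the muscle libraries.

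Towards muscle the 10 names were led by MYL1, an essential light chain of fast myosin, with 0.549 and 1.67 CPM in brain against 13308 and 16158 CPM in muscle. Next were 4 myosin heavy chain names, of which myosin-7B had 2.41 and 1.67 CPM in brain and 6302 and 21010.2 CPM in muscle. Skeletal myosin heavy chains are so alike that counts may be divided among them, which was not tested. The others were the Z-disc proteins myozenin-1 and myotilin, myosin-binding protein H, ankyrin repeat domain-containing protein 1, and platelet glycoprotein 4 (CD36), a fatty acid transporter, with 0.579 and 0 CPM in brain against 899 and 923 CPM in muscle. By count, without regard to gene length, the chaperone HSP 90-alpha was the most abundant name in brain outside the families and had 8181 and 8330.5 CPM in brain and 10181 and 9806 CPM in muscle. ATP synthase subunit alpha and aconitate hydratase, of the respiratory chain and the citric acid cycle, were among the 5 most abundant in muscle outside the families. Several family members, such as TNNT3 and ACTA1, were higher there. ATP synthase subunit alpha had 1083 and 1079 CPM in brain against 11726 and 10273 CPM in muscle.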

How the data were processed

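RNA of brain and pectoral muscle, each a pool of 2 adult females, was sequenced on NextSeq (81 bp reads) and MiSeq (305 bp reads). After trimming, the authors assigned the reads to coding segments of an assembly built from their own data. Trimmomatic 0.36 and STAR 2.5.2a stand in the submitters' processing notes, whereas BWA-MEM stands in the methods of the study. The table deposited by the authors has values in multiples of 0.5 for 14908 segments, each carrying the protein name of its best match in another bird, and these were taken for expected counts without normalization. Columns whose numbers carry comma separators (unit given as other) are deposited counts of the same kind.

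Here 19 mitochondrial rows were dropped, counts of segments with the same name (species, isoform and quality remarks removed) and of both platforms were summed, and CPM was taken over the remaining total, without rounding except for the exact intervals. A pseudocount of 1 CPM was added on the log2 scale, names with at least 1 CPM in brain or muscle were kept, and a 4-fold ratio was the threshold. With 1 pool a tissue no test was run. A count of 0 was given the limit of 3 counts. One count equals 0.0610 and 1.11 CPM in the brain libraries and 0.0605 and 1.14 CPM in the muscle libraries (NextSeq, MiSeq), so low MiSeq levels rest on few counts.

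Members and lists were chosen with earlier results of these data known. Gene symbols were assigned from the protein names after these had been seen, and members without a plain name, or for some a name ending in -like, were not matched. The genes named are, per family, those with the highest and the lowest ratio and those opposite to their textbook tissue, with at least 10 CPM in the higher tissue; outside the families, the 10 largest ratios each way among names of at least 100 CPM and the 5 with the highest CPM in each tissue; and names of opposed segments. Further paralogs were named after their values were seen, to complete a family. Some members are not reported here by name, though they enter the counts. Alternatives were each platform or library left out, the mean of the platforms' CPM, mitochondrial rows kept, TMM factors from edgeR 4.0.16 (R 4.3.3), rescaling without the 50 most abundant names, centring, other pseudocounts, filters and thresholds, and single segments. Scripts ran in Python 3.11.15 with pandas 2.3.3 and numpy 2.4.6, the exact intervals came from scipy 1.17.1, the plots from matplotlib 3.10.9, and the calling was tested on simulated counts.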

Additional observations from a re-analysis of the deposited data

Results flagged for a closer look

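The rows of the mitochondrial genome, which enter none of the comparisons, took 12.2% (NextSeq) and 11.3% (MiSeq) of all counts in brain and 59.5% (NextSeq) and 56.4% (MiSeq) in muscle. They are given here as a signal in data outside the main measurement, and muscle is the tissue with the larger share on both platforms. With 2 libraries a tissue, no library could be assessed as lying far from the others.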

How the results depend on the processing

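The counts of names on each side depended mainly on the scaling. With the mitochondrial rows kept, 6121 names were at least 4-fold higher in brain and 330 in muscle, and the median log2 ratio was 2.08. TMM factors gave 2430 and 1569 names and a median of 0.21, and centring on the median gave 2066 and 1739. Rescaling without the 50 most abundant names gave a median of 0.91. A pseudocount of 0.1 CPM gave a median of 1.504, and one of 5 CPM gave 0.88, 2608 names higher in brain and 2 names with opposed segments. Without a filter the median was 1.13, and 0 names had opposed segments once segments needed 100 CPM. At a 2-fold threshold 6868 names were higher in brain, 1422 in muscle and 18 had opposed segments, and at 8-fold 2361, 354 and 2. Leaving out 1 library or platform gave 4021 to 4379 names higher in brain, 696 to 711 in muscle, medians of 1.28 to 1.39 (1.38 without the NextSeq library of muscle), 29 to 33 families with opposed members, 142 to 145 members called on their textbook side and 6 to 9 names with opposed segments. Over all alternatives 24 to 39 families held opposed members, and 125 to 156 members were called on their textbook side. Of the 224 members called, none changed direction under any alternative run, and 61 fell below 4-fold under at least 1, most often with ratios centred on their median, with a pseudocount of 5 CPM, with TMM factors or with the mitochondrial rows kept. The same held for 1 of 23 other named genes called. Most alternatives could not have reversed a call. The other scalings moved the median log2 ratio by less than the 2 that a call needs. A pseudocount, filter or threshold leaves the tissue with the higher CPM the same. Only leaving out a library or platform, or averaging the platforms, could have changed a direction. In the alternative of single segments, a gene took the ratio of its segment with the most counts. Smaller segments on the other side, such as that of PYGL at 2.35, could therefore not change a direction. Of the genes in the report, CACNB1, KCNJ2, LASP1, CLCN3, PPP1R3B and PPP1R3D fell below on the MiSeq alone. CACNB1, KCNJ2 and LASP1 did so without the muscle NextSeq library, KCNJ2, CLCN3 and PPP1R3B without that of brain, and CLCN3 without the muscle MiSeq library. With a pseudocount of 5 CPM, those that did so included CACNB1, KCNJ2, CLCN3, MAP4, PLN, JPH2, PRKAG3, CHRNG, PPP1R3B and PPP1R3D. With the mitochondrial rows kept, KCNJ2, JPH1, JPH2, PYGL, LDHB, ENO1, GAPDH, COX4I1, SLC16A1, CHRNG, CPT1B, MCU, GBE1, PPP1R3B and PPP1R3D did so. Of the 31 families with opposed members, 25 remained so, and others were gained to give 30. Those lost included the junctophilins, enolases, glycogen phosphorylases, inward rectifiers and monocarboxylate transporters. Why a call was lost was not tested, beyond the constructions named. No paired analysis was possible because each tissue was 1 pool and no test was run. The platforms are technical repeats, so variation between birds is unknown. Few counts stand behind low MiSeq levels, since 1 count is worth 1.11 CPM in brain and 1.14 CPM in muscle.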

Other observations

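Markers of other cell types differed between the pools, and their part in the results was not tested. The 5 endothelial markers summed to 96.0 and 101 CPM in brain and to 491 and 474 CPM in muscle, with KDR, a receptor of vascular growth factor, and PECAM1 higher in muscle and CLDN5, a tight junction protein of the blood-brain barrier, at 10.5 CPM in brain and 0.115 CPM in muscle. Of the astrocyte list, 5 matched of 6, AQP4, a water channel that muscle fibres also carry, had 90.7 CPM in brain and 94.9 CPM in muscle, whereas the glutamate transporter SLC1A3 had 390.1 CPM in brain and no count in muscle. Oligodendrocyte markers, 5 matched of 7, summed to 3299 and 3739.6 CPM in brain and to 22.8 and 29.2 CPM in muscle. Those of macrophages and microglia, 5 of 6, summed to 143 and 110.4 CPM in brain and to 29.0 and 23.5 CPM in muscle.

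Markers of satellite cells and myogenic factors, 4 matched of 5, summed to 3.35 and 3.90 CPM in brain and to 76.5 and 103 CPM in muscle. The myogenic factor MYF6 had 0.0289 CPM in brain and 69.5 CPM in muscle. MYF5 had 0.0289 CPM in brain and 3.76 CPM in muscle, and MYOD1 0.607 and 4.25 CPM. PAX7, of satellite cells in muscle and of certain neurons in brain, had 2.72 CPM in brain and 0.345 CPM, from 6 counts, in muscle. Connective tissue markers, 3 matched of 6, summed to 119 and 158 CPM in brain and to 213 and 239.7 CPM in muscle. Decorin (DCN) had 40.7 CPM in brain and 160.5 CPM in muscle, while the growth factor receptor PDGFRA had 56.6 CPM in brain and 8.96 CPM in muscle. Pituitary hormone genes, 4 matched of 5, summed to 3.81 and 5.57 CPM in brain and had no count in muscle.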
